A study of Punica granatum with 4 samples.

Results

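The genes described here are those whose transcripts were higher in leaves of every abscisic acid (ABA) treated pomegranate library than in the water control, and by about the same amount at each dose. They numbered 45 of the 27893 features counted. They were chosen by their measured levels in CPM (a read count scaled to 1000000 counts per library by the column total), with 0.1 added to each. A member had a mean of at least 2 CPM over the 4 libraries. Its smallest ABA level was at least 2 times the control level, and its largest ABA level was under 1.7 times (rounded) its smallest. The 100 most abundant features were left out by the rule, which removed none that met the other limits. Because all 4 libraries chose the members, their rise over the control and their evenness are described below and not tested.

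All 4 libraries came from leaves of wild-type Punica granatum of the strain Hongmanao, given as 180 days old. The plants were cuttings grown in pots for 90 days and then held dry, with soil water at 30% to 35% of field capacity, and each was sprayed every day with 5 mL of liquid. The libraries were a 0 µM group sprayed with distilled water, and groups sprayed with 30, 60 and 90 µM ABA. The 0 µM group was thus under drought as well, and unstressed plants are not among these libraries. There was 1 library per dose, so no value below has a replicate error, and every comparison with the control rests on the same control library. The labels do not say how many plants went into a library. How reads shared by near-identical genes were counted is not stated either, so members with close copies are uncertain.

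ABA is the hormone that plants make as their tissues dry. It binds receptors of the PYR/PYL family, which then block a group of protein phosphatases, and this frees SnRK-type kinases to act on ion channels of guard cells and on transcription factors. In leaves it is known for closing stomata and for switching on genes that protect cells from water loss. The gene identifiers in the counts carry no product names in the sources used here, so the role of single members is not stated, and the leaf label was not checked against marker genes. In bulk leaf RNA, fewer cells of a type and less RNA per cell cannot be told apart.

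Library totals ran from 22118468 to 28366719 counts, so that 3 counts corresponded to 0.106 to 0.136 CPM. Intervals on ratios are exact 95% conditional binomial (Clopper-Pearson) intervals. They cover counting error only and hold no term for differences between plants. Reads amplified by PCR are not independent molecules, so the intervals may be too narrow even for counting error. Over the 19286 features with at least 1 CPM in at least 1 library, the median log2 ratio to the control (CPM + 0.1) was -0.03 at 30 µM, -0.03 at 60 µM and -0.15 at 90 µM. Scaling by edgeR's TMM factors moved that median at 90 µM by 0.14, to -0.02, and ratios at 90 µM are to be read against it. All 45 members passed the filter of 1 CPM.

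Together the members took 0.0372% of the counts at 0 µM (exact 95% binomial interval 0.0364% to 0.0380%), 0.0997% at 30 µM (0.0985% to 0.101%), 0.113% at 60 µM (0.112% to 0.115%) and 0.115% at 90 µM (0.114% to 0.116%). Their summed level was 2.68 times the control at 30 µM, 3.05 times at 60 µM and 3.09 times at 90 µM. As a ratio, the largest step was the one between water and the lowest dose, which the rule fixes for every member. The median member had 2.76 CPM at 0 µM and 7.73, 10.4 and 10.9 CPM at 30, 60 and 90 µM. As a log2 ratio (CPM + 0.1) the median member stood 1.37, 1.66 and 1.61 above the control at 30, 60 and 90 µM, against the all-feature medians given above.

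In 33 of the 45 the smallest ratio to the control (CPM + 0.1) was under 3, and in 12 it was 3 or more. With 1 CPM added in place of 0.1, it was 3 or more in 5. At 30 µM, 24 members had a ratio whose interval lay wholly above 2, where 1.57% of all features tested did. At 60 µM 38 members did, where the share of all features was 3.45%, and at 90 µM 36 members did, where it was 3.13%. At all 3 doses together 18 members did, with 0.353% of all features. Since the rule asked for a ratio of at least 2 at each dose, these shares are given for scale and nothing is read from them. Another 18 members passed at exactly 2 doses and 8 at 1 dose. For 1 member, LOC116207745, the interval reached below 2 at every dose.

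**Figure D1:**
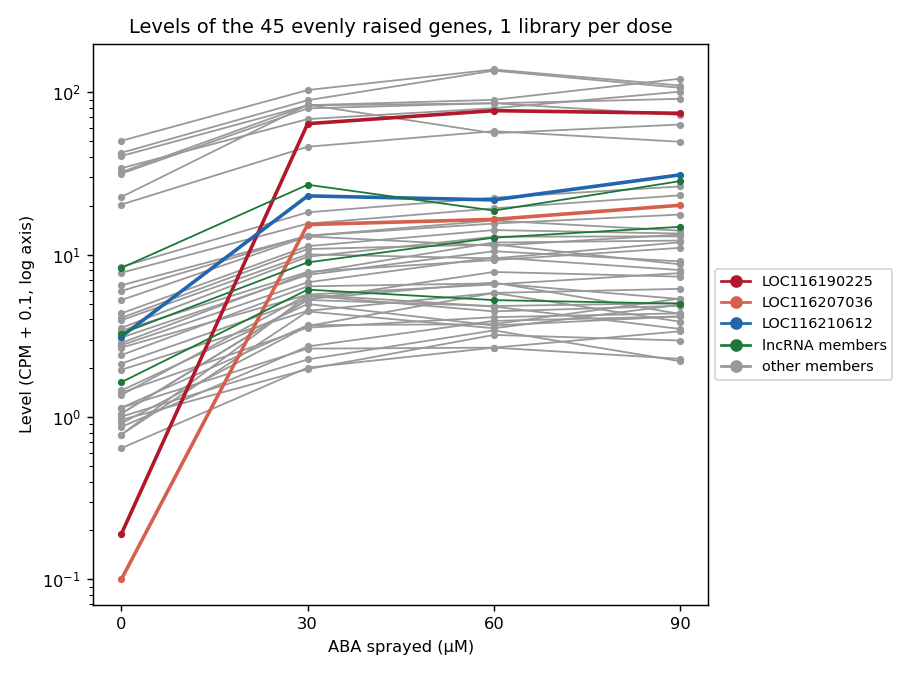
Level of each of the 45 members (CPM + 0.1, log axis) in the libraries sprayed with 0, 30, 60 and 90 µM ABA, 1 line per gene. By the rule, every line climbs between 0 and 30 µM and then varies by less than 1.7 times among the ABA libraries. LOC116190225 and LOC116207036 start from 2 and 0 counts in the control.

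A pair of members were all but absent from the control. LOC116190225 had 2 counts at 0 µM and 1539, 2184 and 1972 counts at 30, 60 and 90 µM, which is 0.0904 CPM and then 64.0, 77.0 and 74.2 CPM. Its ratio to the control was 708 at 30 µM (interval 196 to 5848), 851 at 60 µM (235 to 7035) and 820 at 90 µM (227 to 6777). The width of these intervals comes from the 2 control counts, while the ABA libraries lay within 1.203 times of each other. LOC116207036 had 0 counts at 0 µM, which allows up to 0.136 CPM, and 366, 465 and 533 counts at 30, 60 and 90 µM (15.2, 16.4 and 20.0 CPM). Against a floor of 3 counts in the control library it was at least 112-fold higher at 30 µM, at least 120-fold at 60 µM and at least 147-fold at 90 µM. The exact interval used for the other members gives it lower limits of 90.8, 97.9 and 119.8, below these. Both are annotated as protein-coding. No other member came near: among those with more than 3 control counts the highest ratio at any dose was 10.2.

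That ratio belonged to LOC116210612, a protein-coding gene with 67, 551, 614 and 822 counts at 0, 30, 60 and 90 µM (3.03, 22.9, 21.6 and 30.9 CPM). It was 7.56 times the control at 30 µM (interval 5.86 to 9.90), 7.15 times at 60 µM (5.55 to 9.34) and 10.2 times at 90 µM (7.95 to 13.3). Each interval lay well above 2. LOC116190330 had 15 counts at 0 µM and 132, 124 and 126 counts at 30, 60 and 90 µM, ratios of 8.09 (4.73 to 14.9), 6.45 (3.76 to 11.9) and 6.99 (4.08 to 12.9). LOC116190021 had 21 control counts and 125, 219 and 192 counts at 30, 60 and 90 µM, with ratios of 5.47 (3.43 to 9.15), 8.13 (5.19 to 13.4) and 7.61 (4.84 to 12.6). Compared directly, LOC116190330 showed no difference between ABA doses beyond counting error. LOC116190021 was higher at 60 µM than at 30 µM, by 1.49 times (interval 1.19 to 1.87), and at 90 µM than at 30 µM, by 1.39 times (1.10 to 1.75).

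LOC116191954 had the most even measured ABA levels of all members. It had 21 control counts and 124, 134 and 131 counts at 30, 60 and 90 µM (5.16, 4.72 and 4.93 CPM). Its ABA levels lay within 1.09 times of each other, and it stood at 5.43, 4.98 and 5.19 times the control. The interval of its 60 over 30 µM ratio, 0.712 to 1.18, was too wide to fix its rank in evenness. LOC116213229 had 15 control counts and 105, 97 and 128 counts, ratios of 6.44, 5.04 and 7.10. LOC116195823 had 18 control counts and 85, 162 and 100 counts, ratios of 4.34 (interval 2.59 to 7.68), 7.02 (4.30 to 12.1) and 4.62 (2.78 to 8.11). LOC116195823 was highest at 60 µM, with 5.71 CPM there and 3.53 CPM at 30 µM. The 8 members with the highest smallest ratios, LOC116190225 to LOC116195823, all had intervals above 2 at each dose.

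A further group of low-level protein-coding members had a higher measured level at each successive dose, but none rose beyond counting error at both steps between ABA doses. The interval of 60 over 30 µM held 1 in LOC116202700 (0.755 to 1.37) and LOC116209214 (0.918 to 1.99). That of 90 over 60 µM held 1 in LOC116203288 (0.809 to 1.41) and LOC116209214 (0.921 to 1.76). LOC116202700 had 1.04, 3.58, 3.63 and 5.27 CPM at 0, 30, 60 and 90 µM, and its ratio at 90 µM was 5.06 (interval 3.24 to 8.25). LOC116203288 had 0.769, 2.62, 3.81 and 4.06 CPM, and a ratio of 5.28 at 90 µM (3.15 to 9.40). LOC116209214 had 12 control counts and 46, 73 and 87 counts at 30, 60 and 90 µM, and a ratio of 6.03 at 90 µM (3.28 to 12.1). At 30 µM the intervals of LOC116203288 and LOC116209214 started at 1.97 and 1.84, below 2, while that of LOC116202700 started at 2.15.

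**Figure D2:**
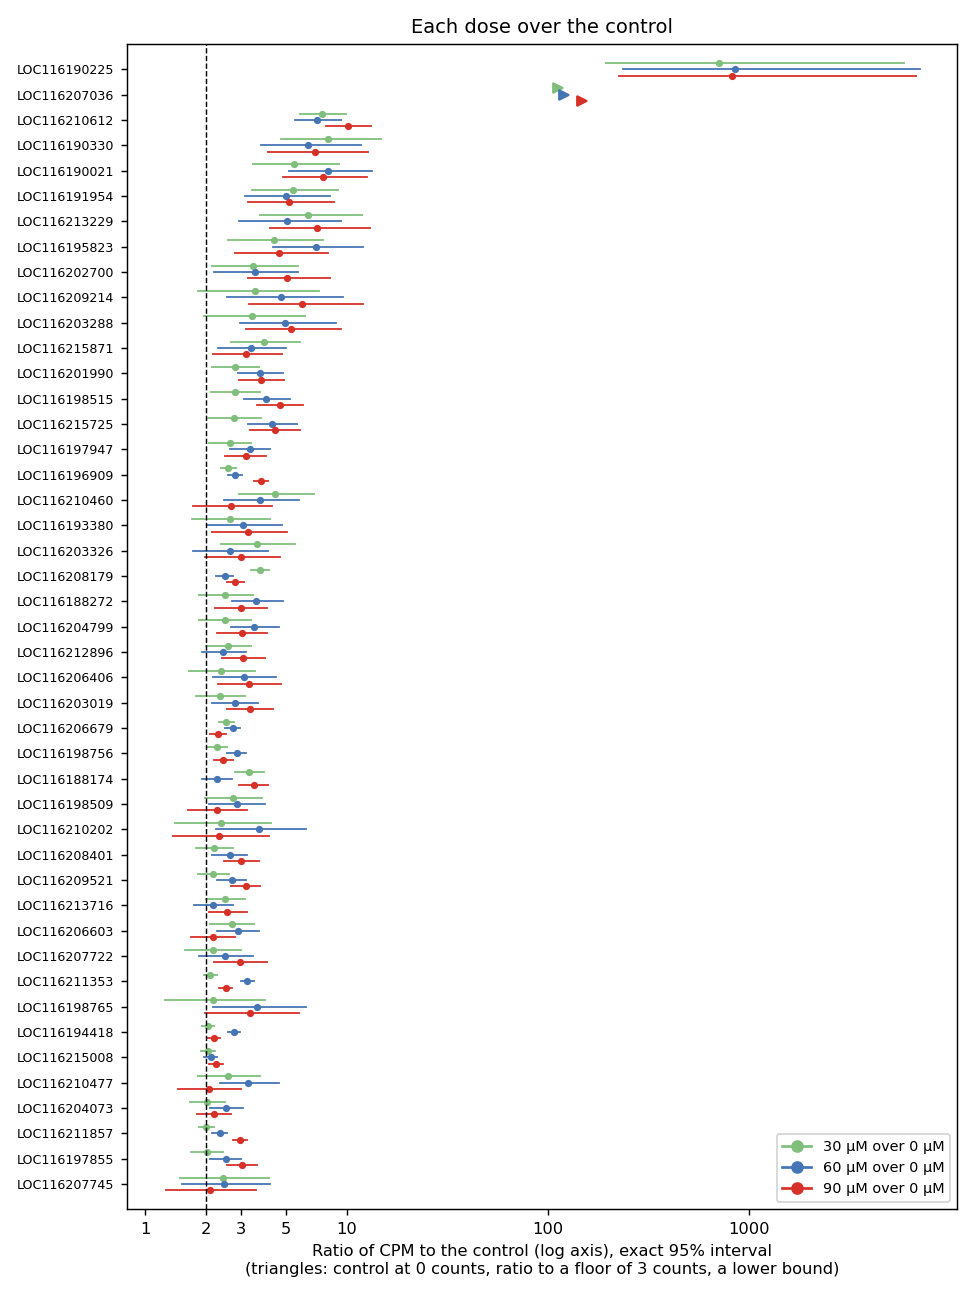
Ratio of CPM in the 30, 60 and 90 µM libraries to the control (log axis) for each member, with exact 95% counting intervals, ordered by the smallest ratio. The intervals narrow with the control count, and those of LOC116207745 at the foot of the plot reach below the dashed line at 2 for all 3 doses; triangles mark LOC116207036 as a lower bound.

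The abundant members carried most of the reads. Those with a mean over 40 CPM numbered 9, LOC116190225 among them, and the 8 most abundant members held 68.1% of the members' counts at 0 µM and 64.4% at 90 µM. LOC116194418, the most abundant, had 50.2, 103, 138 and 110 CPM at 0, 30, 60 and 90 µM, ratios of 2.06 (interval 1.91 to 2.21), 2.75 (2.57 to 2.95) and 2.19 (2.05 to 2.35). LOC116211353 had 42.3, 89.3, 136 and 107 CPM, ratios of 2.11 (1.95 to 2.28), 3.21 (2.99 to 3.45) and 2.52 (2.34 to 2.71). In both the 60 µM library stood highest, above each other ABA dose beyond counting error.

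LOC116196909 had 32.1, 83.2, 89.8 and 121 CPM at 0, 30, 60 and 90 µM, and its ratio of 3.77 at 90 µM (interval 3.48 to 4.10) lay above those at 30 µM (2.59, 2.37 to 2.82) and 60 µM (2.79, 2.57 to 3.04). LOC116211857 was also higher at each successive dose, with 34.0, 68.3, 79.7 and 101 CPM at the 4 doses and ratios of 2.01, 2.34 and 2.97. LOC116215008 had 40.4, 83.0, 85.4 and 91.0 CPM at the 4 doses and the second most even ABA levels of all members, within 1.10 times of each other. Its ratios of 2.05, 2.11 and 2.25 were close to the limit of the rule, and only the interval at 90 µM (2.09 to 2.43) lay wholly above 2.

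LOC116206679 had 31.5, 79.5, 85.7 and 72.3 CPM at 0, 30, 60 and 90 µM, with ratios of 2.53, 2.72 and 2.30. LOC116198756 had 20.3, 46.1, 57.5 and 49.5 CPM, with ratios of 2.28, 2.84 and 2.44. Both passed the bound of 2 at every dose and were highest at 60 µM. LOC116208179 went against the common order, with 22.6, 83.7, 55.9 and 63.2 CPM: its ratio was 3.71 at 30 µM (interval 3.36 to 4.10), 2.48 at 60 µM (2.24 to 2.74) and 2.80 at 90 µM (2.53 to 3.10). Among the abundant members it was the one whose lowest ABA dose stood highest.

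The members included 3 long non-coding RNA (lncRNA) genes, whose transcripts have no annotated protein, and 42 protein-coding genes. The lncRNA share was 6.67% of the members, 4.08% of the 49 genes that the mirrored rule found evenly lowered, and 3.55% of all features tested. With 3 genes this is a description only. LOC116188174 had 181, 646, 527 and 752 counts at 0, 30, 60 and 90 µM (8.18, 26.9, 18.6 and 28.3 CPM), ratios of 3.28, 2.27 and 3.46. LOC116198515 had 70, 213, 358 and 392 counts (3.16, 8.86, 12.6 and 14.7 CPM), ratios of 2.80, 3.99 and 4.66. LOC116215871 had 34, 144, 146 and 130 counts (1.54, 5.99, 5.15 and 4.89 CPM), ratios of 3.89, 3.35 and 3.18. The lncRNA members thus had different orders of the doses, with a dip at 60 µM in the first, a rise at each step in the second and no difference beyond counting error in the third. No label states whether the counting used strand. In the gene order of the RefSeq assembly ASM765513v2, none of the counted genes within 2 places of these 3 overlapped them.

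The remaining 23 members were protein-coding genes with means between 2.08 and 18.8 CPM. In 9 of them each dose was higher than the one before. LOC116209521 had 8.32, 18.1, 22.4 and 26.2 CPM at 0, 30, 60 and 90 µM. LOC116197855 had 7.64, 15.4, 19.2 and 23.1 CPM. Both differed beyond counting error at each of the steps between ABA doses. LOC116208401 had 5.88, 13.0, 15.4 and 17.6 CPM. LOC116201990 had 3.44, 9.60, 12.8 and 12.9 CPM. LOC116215725 had 2.76, 7.61, 11.8 and 12.1 CPM. In LOC116201990 and LOC116215725 the gain lay between 30 and 60 µM, with nearly equal levels at 60 and 90 µM. LOC116203019 had 3.30, 7.73, 9.17 and 10.9 CPM. LOC116207722 had 2.58, 5.57, 6.45 and 7.60 CPM. LOC116206406 had 1.85, 4.41, 5.71 and 6.05 CPM. These differed by small amounts from dose to dose. LOC116193380, with 1.31, 3.45, 4.02 and 4.25 CPM, showed no difference between ABA doses beyond counting error.

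Another 5 of the 23 were highest at 60 µM and lowest, among the ABA libraries, at 30 µM. LOC116204073 had 6.37, 13.0, 16.1 and 13.95 CPM at 0, 30, 60 and 90 µM. LOC116197947 had 4.25, 11.2, 14.1 and 13.4 CPM. LOC116204799 had 2.98, 7.40, 10.4 and 8.99 CPM. All 5 of this group gained between 30 and 60 µM beyond counting error. LOC116188272 had 2.67, 6.65, 9.52 and 7.94 CPM. LOC116198765 had 0.859, 1.87, 3.10 and 2.86 CPM, the lowest 30 µM level of any member, from 45 counts.

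A further 5 were highest at 60 µM and lowest at 90 µM. LOC116206603 had 3.98, 10.7, 11.5 and 8.61 CPM at 0, 30, 60 and 90 µM. LOC116198509 had 2.31, 6.28, 6.56 and 5.23 CPM. LOC116210477 had 2.03, 5.24, 6.63 and 4.21 CPM. In each of these the ratio at 90 µM was the smallest, and its interval started below 2 (1.686, 1.63 and 1.45). At 30 µM the intervals of LOC116198509 and LOC116210477 also started below 2 (1.97 and 1.82). LOC116210202 had 0.904, 2.16, 3.31 and 2.11 CPM. LOC116207745 had 23, 61, 73 and 58 counts, or 1.04, 2.54, 2.57 and 2.18 CPM, a rise that counting error allows to be less than 2-fold at each dose.

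The last 4 were neither highest at 60 µM nor lowest at 30 µM. LOC116213716 had 5.15, 12.8, 11.2 and 13.2 CPM at 0, 30, 60 and 90 µM. LOC116212896 had 3.84, 9.94, 9.38 and 11.8 CPM. Both had their smallest ABA level at 60 µM. LOC116203326 had 1.36, 4.86, 3.56 and 4.06 CPM. LOC116210460 had 1.27, 5.57, 4.69 and 3.38 CPM, and its 90 µM level, 0.608 times its 30 µM level, was the lowest such ratio among the members.

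The control count set how closely a rise could be measured. The 16 members with under 31 control counts had a median smallest ratio (CPM + 0.1) of 3.18, the 15 with 31 to 100 counts one of 2.43, and the 14 with over 100 counts one of 2.16. The highest smallest ratio in the best-counted group was 2.58, in LOC116196909. A low control count itself raises a gene's ratio, and the ratio chose the members, so nothing is read from this order. In the 3 groups, 8, 6 and 4 members had intervals above 2 at all 3 doses.

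Evenness within the limit did not mean equal levels. The largest ABA level was a median of 1.396 times the smallest over the members and 1.45 times over all features tested. In 5 members it was under 1.2 times and in 11 it was 1.5 times or more. For 40 of the 45 members at least 1 pair of ABA doses differed beyond counting error, with an interval of their ratio that left out 1. Of all features tested 88% had such a pair, so the members' share, 88.9%, is near the background. The 5 without such a pair were LOC116190330, LOC116191954, LOC116193380, LOC116207745 and LOC116215871, which had between 15 and 34 control counts and at most 146 counts in any library.

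Among the ABA libraries, the 30 µM library held the lowest ABA level in 28 members, the 60 µM library in 9 and the 90 µM library in 8. The highest level was at 90 µM in 22 members, at 60 µM in 17 and at 30 µM in 6. These orders were not counted over all features, so nothing is read from them. At 60 µM, 24 members were higher than at 30 µM beyond counting error and 3 were lower, while 33.3% of all features were higher and 31.9% lower. At 90 µM, 24 were higher than at 30 µM and 4 lower, while 25.1% of all features were higher and 41.7% lower. Between 90 and 60 µM, 15 members were higher and 11 lower, with 24.7% and 44.3% of all features. The rule caps these ratios and uses the same libraries, so the members' counts are a description.

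The median member had 1.19 times its 30 µM level at 60 µM and 1.19 times at 90 µM, while all features tested had medians of 1.01 and 0.925. At 90 µM it had 1.06 times its 60 µM level, while all features had a median of 0.917. With TMM factors, which shift the 90 µM library, 5 members were highest at 30 µM, 14 were at 60 µM and 26 were at 90 µM. In all, 4 members changed their highest dose. Under either scaling few members were highest at 30 µM, which is a description without a share over all features beside it.

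**Figure D3:**
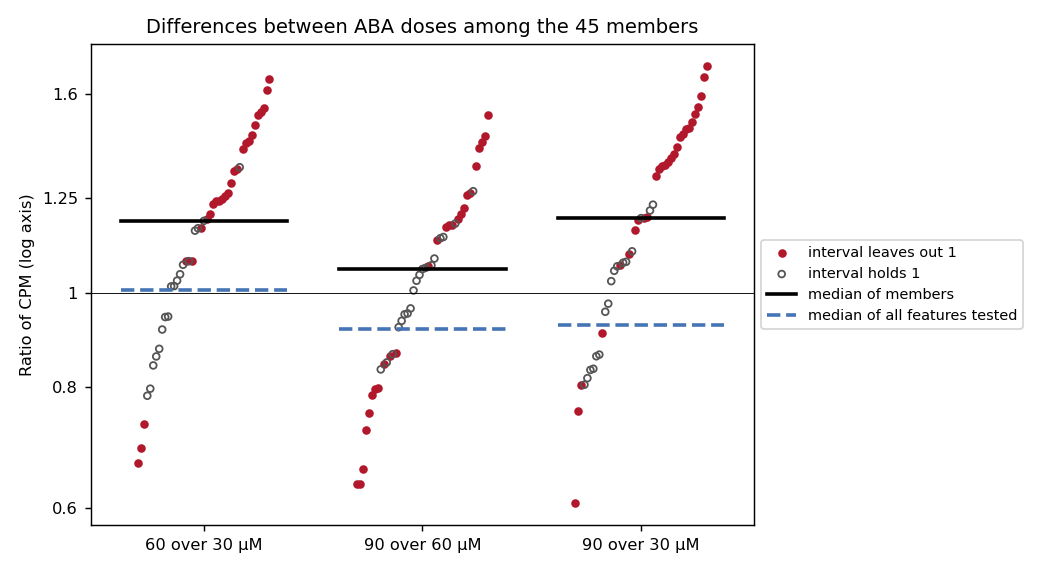
Ratio of CPM between pairs of ABA doses (log axis) for the 45 members, sorted within each pair; filled points have an exact interval that leaves out 1. The members' medians of 1.19, 1.06 and 1.19 lie above the medians of all features tested, 1.01, 0.917 and 0.925.

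Rises beyond counting error at both steps between ABA doses were seen in 5 members, LOC116196909, LOC116197855, LOC116198515, LOC116209521 and LOC116211857, where 4.51% of all features tested rose so. A peak at 60 µM, higher than at 30 µM and higher than at 90 µM beyond counting error, was seen in 8: LOC116194418, LOC116195823, LOC116198756, LOC116204073, LOC116206679, LOC116210202, LOC116210477 and LOC116211353, where 22.1% of all features peaked so. A dip at 60 µM below both other doses was seen in 2, LOC116188174 and LOC116208179, where 14.1% of all features dipped so. These lists were drawn up after the values were seen. The lists and the shares of all features used column totals. They were not redone with TMM factors, which shift the 90 µM library and could change which members are listed. With 1 library per dose, a difference between doses cannot be told apart from a difference between the plants sampled.

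Of the 17535 features with a mean of at least 2 CPM, 127 were at least 2 times the control at all 3 doses (CPM + 0.1). The 45 members were the 35.4% of these that were even, and the other 82 were uneven. For lowered genes the mirrored rule found 100 at or below the matching level at all 3 doses, of which 49 (49.0%) were even. The share of even features among all features tested was not counted. Their median of largest over smallest ABA level, 1.45, lay under the limit, so even features were the larger part there. Among the 100 most abundant features, 4 were raised at all 3 doses and none of these was even. The nearest was LOC116208007, with 1187, 4443, 4416 and 2572 CPM at 0, 30, 60 and 90 µM, whose ABA levels differed by 1.73 times.

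**Figure D4:**
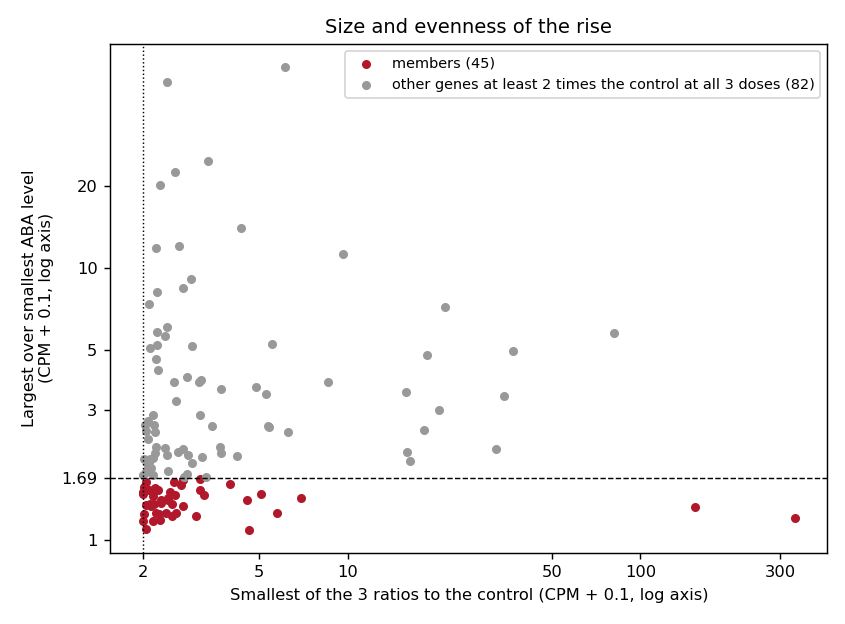
Smallest of the 3 ratios to the control against the largest over the smallest ABA level (both CPM + 0.1, log axes) for the 127 genes at least 2 times the control at every dose. The 45 members lie under the dashed line at the limit of the rule, 33 of them at a smallest ratio under 3, with LOC116207036 and LOC116190225 far to the right; their positions there depend on the 0.1 added.

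The limits on size and evenness had genes close on both sides. For the limit on mean level, no gene that met the other limits lay between 1.56 CPM and the lowest member's 2.08 CPM. Just inside the limit on size lay LOC116207745 and LOC116197855, with smallest ratios (CPM + 0.1) of 2.001 and 2.006, and just outside it LOC116193360 and LOC116206814, with 1.96 and 1.95. Just inside the limit on evenness lay LOC116209214 and LOC116198515, with 1.68 and 1.66, and just outside it LOC116186975 and LOC116198996, with 1.703 and 1.704. LOC116198996 had 44.0, 122, 208 and 164 CPM at 0, 30, 60 and 90 µM. Its mean lay above that of every member. Just inside the limit on mean level were LOC116209214 and LOC116207745, with 2.08 CPM each. Just below it lay LOC116187836 with 1.56 CPM and LOC116190220 with 1.48 CPM. LOC116190220 had 0, 35, 58 and 64 counts at 0, 30, 60 and 90 µM, so it too was without reads in the control.

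Position in the genome was not used to choose the members. In the gene order of the RefSeq assembly ASM765513v2, 41 members were placed on chromosomes and 4 were not. Of the 41, no 2 members were next to each other, and none were separated by a single gene. Between LOC116198509 and LOC116198515 lay only LOC116198517 and LOC116202142, each without counts in any of the 4 libraries. LOC116190225, LOC116190330, LOC116190021 and LOC116191954 could not be looked at in this way. The 41 placed members had 82 genes directly beside them, of which 65 had at least 1 CPM in at least 1 library. None of the 65 was at least 2 times the control at all 3 doses (CPM + 0.1). Their median log2 ratios to the control were 0.04, 0.01 and -0.03 at 30, 60 and 90 µM. Those of all features tested were -0.03, -0.03 and -0.15. Intervals wholly above 2 were found for 2, 3 and 4 of the 65 flanking genes at the 3 doses. That was 3.08%, 4.62% and 6.15%, where all features gave the 1.57%, 3.45% and 3.13% stated above. Among kept genes with a place in the gene order the shares were 1.45%, 3.33% and 3.06%.

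Among the 65, the highest smallest ratio to the control (CPM + 0.1), 1.89, belonged to LOC116213932, beside LOC116213229, with 5.24, 10.02, 18.2 and 24.8 CPM at 0, 30, 60 and 90 µM. Its ABA levels were uneven, past the limit of the rule, while LOC116213229 itself had 0.678, 4.37, 3.42 and 4.81 CPM. LOC116209952, beside LOC116210477, had 42.7, 102, 71.7 and 73.1 CPM and so also stood above the control in each ABA library, though under 2-fold at 60 and 90 µM. LOC116206407, beside LOC116206406, had 45.6, 70.8, 74.6 and 76.3 CPM, an even but smaller difference from the control. Elsewhere the neighbour moved apart from the member: LOC116195203, beside LOC116196909, had 0 counts at 0, 30 and 60 µM and 114 counts at 90 µM. These were picked after their values were seen.

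**Figure D5:**
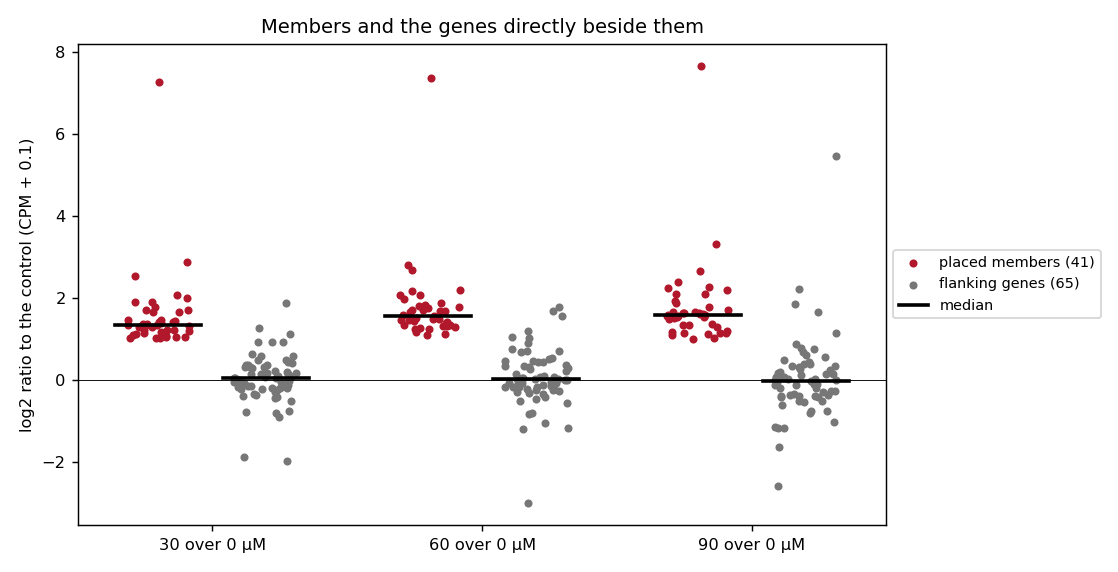
Log2 ratio to the control (CPM + 0.1) of the 41 placed members and of the 65 flanking genes with at least 1 CPM in a library, at 30, 60 and 90 µM, with medians as bars. Members lie at 1 or more by the rule, while the flanking genes centre on 0 with medians of 0.04, 0.01 and -0.03; the topmost member, LOC116207036, had 0 control counts, so its height depends on the 0.1 added.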

How the data were processed

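The authors deposited 1 table of whole-number read counts for each gene, without normalization, judged from its values. FastQC, HISAT2 and featureCounts are named in the submitters' processing notes, without versions, and neither the genome build nor the strand setting is stated. Counts were divided by column totals to give CPM, the scale of the selection rule. A gene counted as past 2-fold where the exact conditional binomial interval of its ratio lay wholly above 2 (scipy 1.17.1). With 1 library per dose no test was made. edgeR 4.0.16 gave TMM factors and DESeq2 1.42.0 size factors, as alternatives only. The selection and intervals were checked on simulated counts that held counting error alone and an equal rise at every dose. Spread between plants and rises near the limit of the rule were not covered by that check.

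The members and lists were chosen with earlier results of these data known. The genes to name were those with the 8 largest smallest ratios, the 8 highest means, the 8 most even levels and those beside each limit. All other members are given too, so that each is accounted for. All 45 identifiers matched a symbol in the RefSeq table of ASM765513v2, which was used for feature class and gene order. Promoters, proteins and product names were not analysed here, so the planned motif, protein and pathway lists were not filled.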

Additional observations from a re-analysis of the deposited data

How the results depend on the processing

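The number of evenly raised genes was 45 by column totals, 45 with TMM factors and 47 with DESeq2 size factors, and 42 genes were shared by all 3. The 3 lost were LOC116198515, LOC116209214 and LOC116215725, each through the limit on evenness. With nothing added to CPM there were 45 members (44 shared), with 1 CPM added 30 (29 shared) and with no gene left out 45. The number followed the limits: 87 with no minimum of mean CPM, 18 with a mean of at least 10 CPM, 12 at 3 times the control or more, 171 at 1.5 times or more, 24 with the largest ABA level under 1.4 times the smallest, and 123 with no limit on evenness. Applied to only 2 ABA libraries, an alternative added after the data were seen, the rule found 254 genes without the 30 µM library, 145 without the 60 µM library and 99 without the 90 µM library, and kept 44, 41 and 43 of the 45. The median log2 ratio of the members was 1.17, 1.33 and 1.403 at 30, 60 and 90 µM with 1 CPM added, and at 90 µM it was 1.74 with TMM factors and 1.76 with DESeq2 size factors. In a comparison also added after the data were seen, the smallest ratio was 3 or more in 12 members with TMM factors, 12 with DESeq2 size factors and 5 with 1 CPM added. With a lower bound of 1.5 in place of 2, 42 members passed at 30 µM, 45 at 60 µM and 42 at 90 µM. The rule's ratio of at least 2 favours such passing. The share of all features at this bound was not counted, so nothing is read from these numbers. The other counts of members past 2-fold and of adjacent members stayed within 1.5 times of the values in the report under the alternatives run. So did the number of members with any pair of ABA doses apart beyond counting error, 39 with TMM factors. The counts for single pairs of doses, and of rises, peaks and dips, used column totals only. The motif, protein and similarity alternatives were not run. Depth limits the members with under 31 control counts most.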
